A study of Mus musculus with 76 samples.

Results

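*Pomc* and *Cartpt* were high in the same neurons and low in the same neurons. Among 76 neurons of the mouse arcuate nucleus, of which the content of each was sequenced, the rank correlation of the 2 transcripts was between 0.747 and 0.795 in each of the 4 groups of the study. With the groups pooled, no other gene of those counted in at least 38 cells ranked with *Pomc* as closely as *Cartpt* did, and none ranked with *Cartpt* as closely as *Pomc* did. The members are *Pomc* (ENSMUSG00000020660) and *Cartpt* (ENSMUSG00000021647), 2 of the 56980 genes of the deposited table, taken by their identifiers and not by their values.

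*Pomc* encodes pro-opiomelanocortin, a prohormone that arcuate neurons cut into melanocortin peptides, which act on melanocortin receptors to reduce food intake, and into the opioid beta-endorphin. *Cartpt* encodes the prohormone of the CART peptides, which also reduce feeding. Both precursors enter the regulated secretory pathway, are cut by prohormone convertases and trimmed by carboxypeptidase E in dense-core granules, and the neurons that make both are a known population of the arcuate nucleus.

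The neurons came from male PomcCreERT2;tdTomato;Pomc-eGFP mice, as the study's results name them, while its methods name PomcCreERT2;tdTomato. All of them carried the tamoxifen-dependent Cre recombinase driven by *Pomc* and received tamoxifen at 12 weeks of age, so that red tdTomato is kept by cells whose *Pomc* promoter was active at that age, and green eGFP is seen in those that use it at recording. Cells with both colours are labelled Pomc+ and cells with tdTomato alone are labelled Ghost. They came from 5 mice on chow diet (CD) and 5 mice on high-fat diet (HFD), fed for 6 months, in 3 independent experiments, and each cell was drawn into a patch pipette for 3 min after recording. There were 23 Pomc+ CD, 15 Ghost CD, 19 Pomc+ HFD and 19 Ghost HFD cells. The labels name no mouse, so each group is 1 sample of cells. Values below are descriptions of these cells, with quartiles over cells and no test between groups.

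The total count per cell ran from 4057 to 1452605 with a median of 322652, and the number of genes with a count from 548 to 9808. The 7 genes found in every cell, *Lars2* among them, took 43.7% of all counts. Levels are given as CPM, the count of a gene scaled to a cell total of 1000000. Of 10 neuronal markers, *Map1b* was counted in the most cells (70) and *Nefm* in the fewest (28). Between them were *Snap25* in 67 cells, *Tubb3* in 62, *Rbfox3* in 40, *Syt1* in 36 and *Nefl* in 30. *Mc4r*, *Kiss1* and *Rax* had no count in any cell.

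*Pomc* lies on chromosome 12 at positions 3954951 to 3960642 of GRCm38 on the forward strand, and *Cartpt* on chromosome 13 at 99898489 to 99901091 on the reverse strand, so the pair does not share a chromosome. The joined exons of *Pomc* hold 1318 bases and those of *Cartpt* 1277, in the GENCODE M21 annotation. The 250 bases before each transcription start, from RefSeq on GRCm38.p6, were searched on both strands for 6 short motifs, since the levels of the pair go together. The *Pomc* stretch, chr12:3954695-3954944 on the forward strand, is given whole. Of the *Cartpt* stretch, which lies in the 5′ untranslated region of a longer GENCODE transcript, the 30 bases around a full cyclic AMP response element are given, chr13:99900777-99900806 on the reverse strand. Capitals mark the motif matches.
Pomc: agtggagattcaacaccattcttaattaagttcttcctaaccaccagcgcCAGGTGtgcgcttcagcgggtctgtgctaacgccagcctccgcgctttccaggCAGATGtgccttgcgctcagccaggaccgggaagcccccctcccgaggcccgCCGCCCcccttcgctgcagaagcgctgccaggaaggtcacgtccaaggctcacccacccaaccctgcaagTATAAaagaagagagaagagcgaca
Cartpt: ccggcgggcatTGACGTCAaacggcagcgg

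The *Pomc* stretch held a TATA box (TATAA, in 22.8% of 32817 mouse promoters of this length), 2 E-boxes (CANNTG, 66.2%) and 1 GC box (GGGCGG, 32.7%). The *Cartpt* stretch held the full response element (TGACGTCA, 1.55%), whose letters also count as 2 matches of its shorter form (TGACG, 17.7%), 1 E-box and 1 GC box, and no TATAA. Neither held a STAT motif (TTCNNNGAA, 7.01%). The motifs present in both were the E-box and the GC box, which are common among all promoters. A match describes these letters only.

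Both transcripts were counted in nearly all cells. *Pomc* had a count in 73 of 76 cells (96.1%, exact Clopper-Pearson interval 88.9 to 99.2%), and *Cartpt* also in 73. Both were counted in 71 cells, *Pomc* alone in 2, *Cartpt* alone in 2 and neither in 1, a Ghost CD cell with 4057 counts in all. Among the cells without eGFP, 32 of 34 Ghost cells had a *Pomc* count, against 41 of 42 Pomc+ cells.

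The median *Pomc* level was highest in Pomc+ CD cells, where the lowest cell had 0 CPM, the median was 6176 and the highest cell had 43974. In Ghost HFD cells the range of *Pomc* was 0 to 8826 CPM with a median of 4171. In Ghost CD cells it was 0 to 34418 CPM with a median of 2291, and in Pomc+ HFD cells 90.9 to 13989 CPM with a median of 2206. The quartile ranges of the 4 groups overlapped (1692 to 16907, 430 to 6935, 2039 to 6877 and 1002 to 4634 CPM in that order), so no neighbours in this order stood apart beyond the spread over cells.

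The *Cartpt* level had another order. Ghost CD cells had the highest median, 2270 CPM, with a range of 0 to 6587. Pomc+ CD cells followed with 2070 CPM (340 to 11086), Ghost HFD cells with 1771 CPM (2.53 to 4516) and Pomc+ HFD cells with 856 CPM (0 to 16056). Here too the quartile ranges overlapped, from 162 to 2342 CPM in Pomc+ HFD cells to 901 to 5786 CPM in Pomc+ CD cells. The highest *Cartpt* level of all, 16056 CPM, was in 1 Pomc+ HFD cell, a member of the group with the lowest median.

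Within Pomc+ cells the HFD median was below the CD median for both transcripts, 0.357-fold for *Pomc* and 0.414-fold for *Cartpt*. Within Ghost cells the medians differed in opposite directions, with *Pomc* 1.82-fold and *Cartpt* 0.780-fold on HFD relative to CD. Whether these differences depart from those between mice could not be tested, and fewer transcripts in a cell and less content drawn from it cannot be told apart. On the deposited normalized scale the *Pomc* median of Pomc+ CD cells lay 0.23 above that of all cells on the log2 scale, against 1.01 in CPM. That of Pomc+ HFD cells moved down as well, to -1.33 against -0.47 in CPM, so it stayed below that of Pomc+ CD cells.

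Cell by cell, the levels followed each other in every group. Spearman's rho of *Pomc* and *Cartpt* was 0.770 in Pomc+ CD cells (n = 23), 0.795 in Ghost CD cells (n = 15), 0.747 in Pomc+ HFD cells (n = 19) and 0.765 in Ghost HFD cells (n = 19). Over all 76 cells it was 0.760, and the mean of the 4 groups, weighted by their cells, was 0.768. Pooled over diets, rho was 0.752 in Pomc+ and 0.823 in Ghost cells, and pooled over labels 0.782 on CD and 0.713 on HFD. The 2 values of a cell share its library and its total count.

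**Figure D1:**
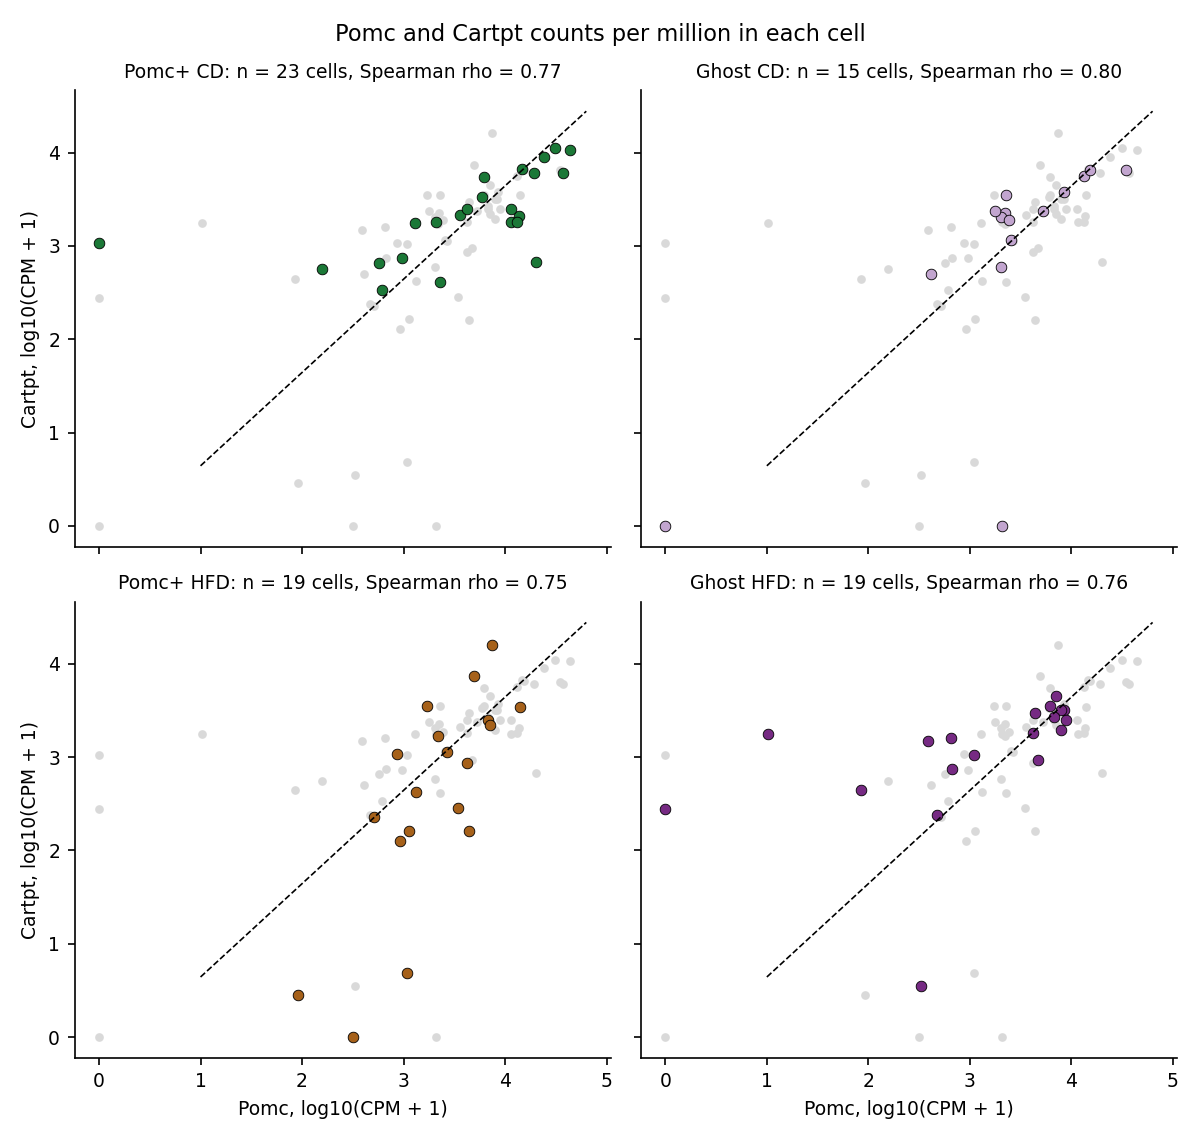
*Pomc* (horizontal) against *Cartpt* (vertical) in each cell, both as log10(CPM + 1), with 1 panel per group, coloured points for the cells of that group, grey points for the other cells, and a dashed line at the median ratio of all cells. Most points run along the line in every panel, with rho from 0.747 to 0.795, and single cells fall to the left edge (no *Pomc*) or to the bottom (no *Cartpt*).

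Around the all-cell medians of 3065 CPM for *Pomc* and 1799 CPM for *Cartpt*, 32 cells were high for both and 32 were low for both, while 6 were high for *Pomc* only and 6 for *Cartpt* only. In Pomc+ CD cells 13 were high and 8 low for both, and 2 were high for *Pomc* only. In Ghost CD cells 5 were high and 5 low for both, and the other 5 were high for *Cartpt* only, at *Pomc* levels of 1773 to 2437 CPM, close under the median. Pomc+ HFD cells were mostly low for both (10 of 19), with 5 high for both, 3 for *Pomc* only and 1 for *Cartpt* only. Ghost HFD cells split into 9 high and 9 low for both, and 1 high for *Pomc* only.

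The cells at the top of the range were high for both. The cell with the most *Pomc* (Pomc+ CD cell 660) had 43974 CPM of *Pomc* and 10735 CPM of *Cartpt*. Cell 631 of the same group, the most deeply counted cell, had 31190 and 11086 CPM, and Ghost CD cell 687 had 34418 and 6466 CPM. An exception was Pomc+ CD cell 667, with 20178 CPM of *Pomc* but 673 CPM of *Cartpt*. Without that cell rho in Pomc+ CD cells was 0.864.

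The rank correlation kept its sign and most of its size with depth taken into account. Given the number of genes detected, the partial rank correlation was 0.706 in Pomc+ CD, 0.774 in Ghost CD, 0.810 in Pomc+ HFD and 0.796 in Ghost HFD cells. With every cell thinned to 40000 counts, which leaves out 8 shallower cells, it was 0.753, 0.774, 0.805 and 0.748 in the same order. *Pomc* itself was higher in cells with more genes detected (rho 0.666, 0.518, 0.260 and 0.467), whereas for *Cartpt* these values were 0.450, 0.327, -0.11 and 0.147. On 2 other scales the values of 2 groups were lower. With the 7 genes found in every cell left out of the total, rho was 0.596 in Pomc+ CD and 0.533 in Ghost HFD cells, and Pearson's r of log2(CPM + 1), which gives single cells near 0 more weight, was 0.596 and 0.448 there.

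Sorted by the cell numbers in the labels, the cells were split into 8 runs, with a new run wherever the diet changed. All cells of a run therefore come from 1 diet by construction. What a run stands for is not given in the labels. In the 6 runs with at least 6 cells, rho over both labels was 0.829, 0.731, 0.622, 0.833, 0.904 and 0.476, all above 0. Within 1 group of 1 run it was lowest in the 8 Pomc+ CD cells of run 3, 0.429, where the *Pomc* median was 13440 CPM.

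Over all cells the quartiles of the ratio of *Cartpt* to *Pomc* were 4.23-fold apart, against 8.33-fold for *Pomc* and 5.58-fold for *Cartpt* in CPM. The ratio had the narrowest quartiles of the 3 measures in both CD groups, at 4.09-fold in Pomc+ and 2.36-fold in Ghost cells. This was not so on HFD, where they were 5.41-fold apart in Pomc+ cells, against 4.62-fold for *Pomc*, and 4.23-fold in Ghost cells, against 3.36-fold for *Cartpt*. The ratio was formed from counts with 0.5 added to each, so the cell with neither transcript counted had a log2 ratio of 0. The median ratio of all cells was 0.441, a log2 ratio of -1.18. In 59 of 76 cells the ratio lay within 4-fold of that median. Per exon base, *Pomc* was above *Cartpt* in 56 of the 75 cells with a count of either, and *Cartpt* above *Pomc* in 19, with a median log2 ratio per base of -1.14.

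By group, the median log2 ratio was -1.11 in Pomc+ CD cells (range -4.90 to 6.30) and -1.12 in Ghost CD cells (-7.97 to 0.61). On HFD the median was -1.68 in Pomc+ cells (-7.57 to 1.13) and -0.81 in Ghost cells (-6.80 to 7.55). The ends of these ranges come from cells with almost no count of 1 transcript and depend on the added 0.5. All groups overlapped, and their quartile ranges did so too (-2.33 to -0.30, -1.22 to 0.02, -3.22 to -0.78 and -1.36 to 0.72 in the same order). The median ratio of Ghost cells was 0.994-fold that of Pomc+ cells on CD and 1.82-fold on HFD. From counts summed over a group, which weight the deepest and highest cells most, the log2 ratio was -1.82 in Pomc+ CD and -0.69 in Pomc+ HFD cells, so that the order of these 2 groups turned.

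**Figure D2:**
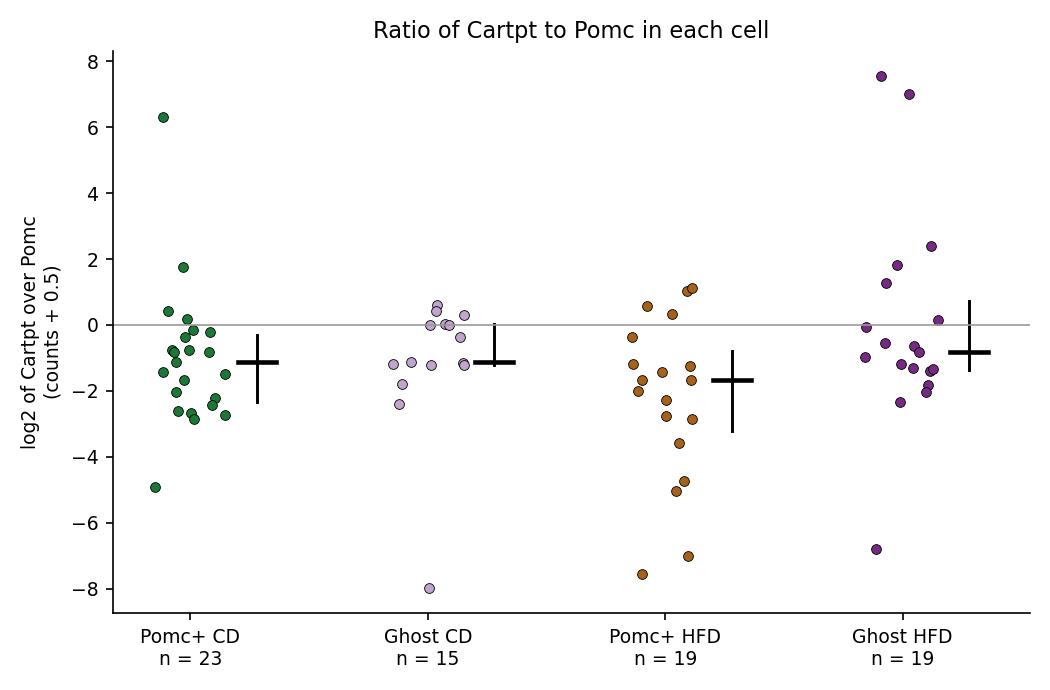
Log2 ratio of *Cartpt* to *Pomc* (counts + 0.5) in each cell by group, with a thick bar at the median, a vertical line between the quartiles and a grey line where the counts are equal. The medians lie between -1.68 and -0.81, most cells lie below 0, and each group spans the medians of the others.

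Within runs of cell numbers the 2 labels differed more than in the pooled CD cells. Of the 8 runs, 6 held at least 3 cells of each label, and in all 6 the Ghost median of the log2 ratio was above the Pomc+ median. In run 7 this depended on Ghost cell 712, which had neither transcript counted. Without cell 712 the Ghost median of run 7 is the value of cell 709, -0.37, below the Pomc+ median of -0.28. On CD the Ghost and Pomc+ medians were 0.03 and -1.49 in run 1, -1.22 and -2.12 in run 3, -1.20 and -1.78 in run 5, and -0.19 and -0.28 in run 7. On HFD they were -0.81 and -1.98 in run 2 and 1.83 and -1.68 in run 8. As a fold this is 1.07 (run 7, with cell 712 included) to 2.88 in the CD runs, where the pooled value was 0.994, and 2.24 and 11.3 in the HFD runs. The Ghost median of run 8 is the value of cell 713, which had 5 *Pomc* and 19 *Cartpt* counts in a total of 12847. The other Ghost cells of run 8 were at -0.05 and, with 1 *Pomc* count, at 6.996. Run 4 held 1 Ghost cell (-2.02, against a median of -2.00 in 3 Pomc+ cells), and run 6 held 1 Pomc+ cell (1.02, against -1.27 in 4 Ghost cells). These medians rest on 3 to 11 cells each, the ratio also differed between runs of the same diet, and the comparison of labels by run was chosen after the values were seen. The ratio was also lower in cells with more genes detected in 3 of the groups (rho -0.58 in Pomc+ CD, -0.22 in Pomc+ HFD and -0.67 in Ghost HFD cells, against 0.057 in Ghost CD cells). The median number of genes was lower in Ghost than in Pomc+ cells in runs 1, 2, 3 and 8 and higher in runs 5 and 7. In run 8 it was 2453 in Ghost cells (839 to 2933) and 4672 in Pomc+ cells (2701 to 5758). The part of the number of genes in the difference between labels was not tested.

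**Figure D3:**
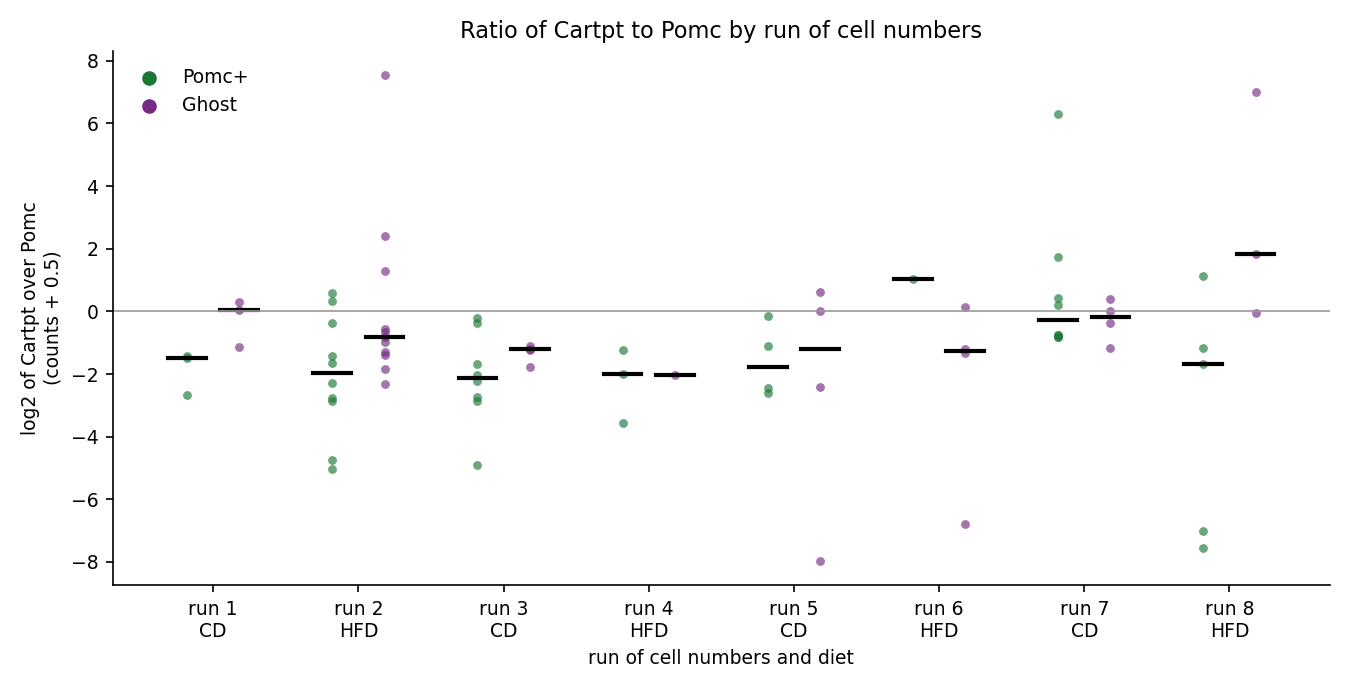
Log2 ratio of *Cartpt* to *Pomc* (counts + 0.5) in each cell, by run of cell numbers and diet (horizontal), with Pomc+ cells in green, Ghost cells in purple and a black bar at each median. In runs 1, 2, 3, 5, 7 and 8 the Ghost bar lies above the Pomc+ bar, by 0.10 in run 7 and by 3.50 in run 8. The Ghost bar of run 7 includes a cell with neither transcript counted, placed at 0 by the added 0.5, and lies below the Pomc+ bar without it.

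In *Pomc* and *Cartpt* levels the runs also differed. The *Pomc* median of Pomc+ CD cells was 23939 CPM in run 1, 13440 in run 3, 10346 in run 5 and 954 in run 7. That of Ghost CD cells was 2216, 7882, 2189 and 2105 CPM. In runs 1, 3 and 5 Pomc+ cells therefore had the higher *Pomc* median and in run 7 Ghost cells did. On HFD the *Pomc* median was 1768 CPM in Pomc+ and 4736 CPM in Ghost cells of run 2, the order of the pooled HFD cells, and 1089 and 389 CPM in run 8, the opposite order. *Cartpt* medians in the CD runs were 8987, 1938, 5809 and 1411 CPM in Pomc+ and 2270, 3405, 2774 and 2118 CPM in Ghost cells. In HFD runs 2 and 8 they were 638 and 226 CPM in Pomc+ and 2480 and 1479 CPM in Ghost cells, higher in Ghost cells in both.

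In 7 cells the ratio lay more than 16-fold from the common one, and each of them held 0 to 3 counts of 1 of the transcripts. In 3 cells *Cartpt* was counted with at most 1 count of *Pomc*. Ghost HFD cell 656 had 93 *Cartpt* counts and no *Pomc* count, where 3 counts would be 8.99 CPM. Ghost HFD cell 715 had 191 *Cartpt* counts and 1 *Pomc* count, so that *Cartpt* made up 99.5% of the pair (exact interval 97.1 to 99.99%). Pomc+ CD cell 700 had 39 *Cartpt* counts and no *Pomc* count in a total of 36556, where 3 counts would be 82.1 CPM. Its mitochondrial share, 9.45% of its counts, was the highest of all cells.

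In the other 4 *Pomc* was counted with at most 3 counts of *Cartpt*. Ghost CD cell 684 had 125 *Pomc* counts and no *Cartpt* count, and Pomc+ HFD cell 716 had 64 and none. Pomc+ HFD cell 717 had 284 *Pomc* counts and 1 *Cartpt* count, a *Cartpt* share of 0.351% (exact interval 0.00888 to 1.94%). Ghost HFD cell 695 had 390 *Pomc* counts, 3 *Cartpt* counts and 267 counts of *Npy*, the orexigenic neuropeptide Y. Of the 7 cells 4 were Ghost and 3 Pomc+, and all were counted deeply enough to hold *Gapdh*, from 51 to 802 counts. Intervals cover counting error only, and reads of 1 molecule copied by PCR are not independent.

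Among all genes the pair stood at the top. Of 1582 genes other than *Pomc* counted in at least 38 cells, 1 reached the rho of *Cartpt* with *Pomc* with the groups pooled (0.0632%), which was *Cartpt* itself. The same held for *Pomc* among genes ranked by *Cartpt* (0.0632%). The median gene had a rho of 0.262 with *Pomc*, with 95.6% of genes above 0, and of 0.153 with *Cartpt*, with 89.8% above 0, so a positive rho alone was common. Group by group, the share of genes with a rho at or above that of *Cartpt* with *Pomc* was 1.33% in Pomc+ CD, 0.569% in Ghost CD, 0.0632% in Pomc+ HFD and 0.569% in Ghost HFD cells. For *Pomc* with *Cartpt* the shares were 0.19%, 0.126%, 0.0632% and 0.0632%. In Pomc+ CD cells *Cartpt* thus stood at rank 21 for *Pomc*, and at rank 9 in both groups of Ghost cells.

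Both members were abundant, at mean levels of 6544 and 2559 CPM. Among the 297 genes counted in at least 60 cells each member was still first for the other, as it was among 5010 genes counted in at least 20 cells, on the deposited normalized scale (rho 0.827) and with the 7 genes found in every cell left out (rho 0.667).

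The next genes by rho with *Pomc* were *Caly* (0.695), which encodes the neuronal vesicle protein calcyon, *Resp18* (0.667), regulated endocrine-specific protein 18, *Rtn1* (0.616), a reticulon of the endoplasmic reticulum, and *Atp6ap2* (0.599), an accessory protein of the vacuolar proton pump. *Caly* (0.589) and *Resp18* (0.587) were also next after *Pomc* for *Cartpt*, followed by *Ldha* (0.503), lactate dehydrogenase A, and *Gpx3* (0.487), a secreted glutathione peroxidase. *Resp18* was above 0.5 with both members in every group, from 0.573 to 0.828 with *Pomc* and from 0.505 to 0.662 with *Cartpt*. *Rtn1* varied, from 0.221 with *Pomc* in Pomc+ HFD to 0.801 in Pomc+ CD cells.

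At the other end, the lowest rho with both members was that of a gene without a symbol, ENSMUSG00000119584, at -0.64 with *Pomc* and -0.38 with *Cartpt*, whose mean level was 367691 CPM. The lowest genes with a symbol were *Lars2*, a mitochondrial leucyl-tRNA synthetase, *Gm15564* and *Mir6236* for *Pomc* (rho -0.60, -0.59 and -0.54), and *Lars2*, *Gm15564* and *Ptgds*, prostaglandin D synthase, for *Cartpt* (-0.38, -0.33 and -0.23). *Lars2* had a count in every cell and a mean of 82743 CPM. *Pomc* was also lower where the most abundant gene of a cell took more of its counts (rho -0.70, -0.57, -0.46 and -0.83 in Pomc+ CD, Ghost CD, Pomc+ HFD and Ghost HFD cells), and *Cartpt* less so (-0.50, -0.15, -0.22 and -0.63). The rho of the pair without these genes in the total is given above.

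**Figure D4:**
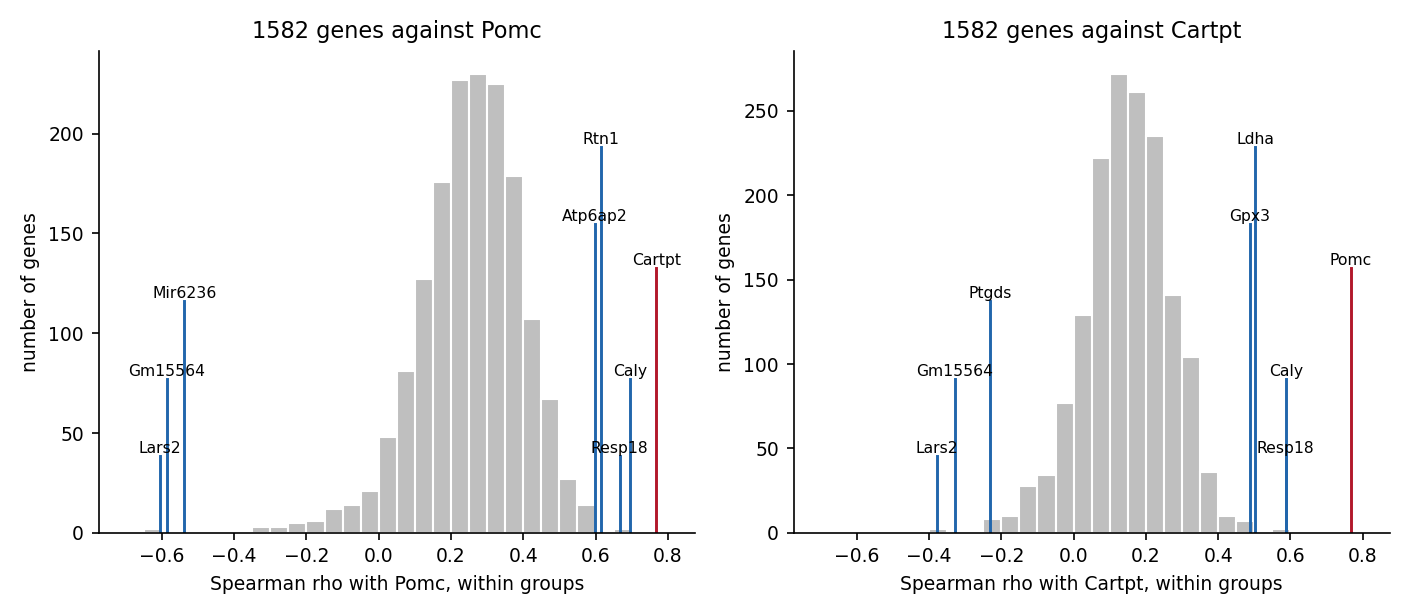
Number of genes (vertical) by Spearman's rho with *Pomc* on the left and with *Cartpt* on the right (horizontal), within groups, for 1582 genes each, with the other member in red and the named genes with a symbol at the 2 ends in blue; the heights of the coloured lines only keep names apart. The red line lies at 0.768 on both sides, to the right of all other genes.

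The genes of prohormone processing that were counted in enough cells lay above the middle of all genes. Of 6 on the list, 3 were counted in at least 38 cells. *Pcsk1n*, which encodes the convertase inhibitor proSAAS, had a rho of 0.505 with *Pomc* and 0.485 with *Cartpt*. *Scg5*, the chaperone 7B2 of the convertase PC2, had 0.487 and 0.309. *Cpe*, carboxypeptidase E, had 0.395 and 0.269. The median of these 3 was 0.487 with *Pomc*, against 0.262 over all genes, and 0.309 with *Cartpt*, against 0.153. *Pcsk1* and *Pcsk2*, the convertases, were counted in 26 and 24 cells and *Pam*, the amidating enzyme, in 34, and no rho was formed.

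Of 5 granule proteins 3 were counted in enough cells. *Vgf*, a granin-like precursor, had a rho of 0.525 with *Pomc* and 0.365 with *Cartpt*, *Scg3*, which helps to sort granins, 0.484 and 0.229, and *Scg2*, secretogranin II, 0.313 and 0.050. *Chga* and *Chgb* were counted in 37 and 36 cells. In each of these 6 genes of the secretory pathway rho was higher with *Pomc* than with *Cartpt*, as it was at the median of all genes.

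For the other lists the medians with *Pomc* were lower than in these 2, while with *Cartpt* those of neuronal and housekeeping genes were above that of the granule proteins (0.229). Of 7 transcription factors of *Pomc* neurons 2 passed the minimum, *Isl1* with 0.406 and 0.167, and *Stat3*. Of 10 neuronal markers 7 passed, with a median of 0.337 with *Pomc* and 0.271 with *Cartpt*. *Stmn2*, a microtubule regulator of growing neurites, was highest with *Pomc* (0.537), and *Meg3* was lowest, at 0.028 with *Pomc* and -0.10 with *Cartpt*. The 8 housekeeping genes had medians of 0.313 and 0.232, with *Ubb* highest (0.483 with *Pomc*) and *Actb* lowest (0.0036). None of 9 receptors, among them *Lepr* of leptin and *Insr* of insulin, and none of 11 other arcuate peptides was counted in 38 cells. *Npy* was counted in 17 cells and *Agrp*, a marker of the opposing orexigenic neurons, in 9.

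**Figure D5:**
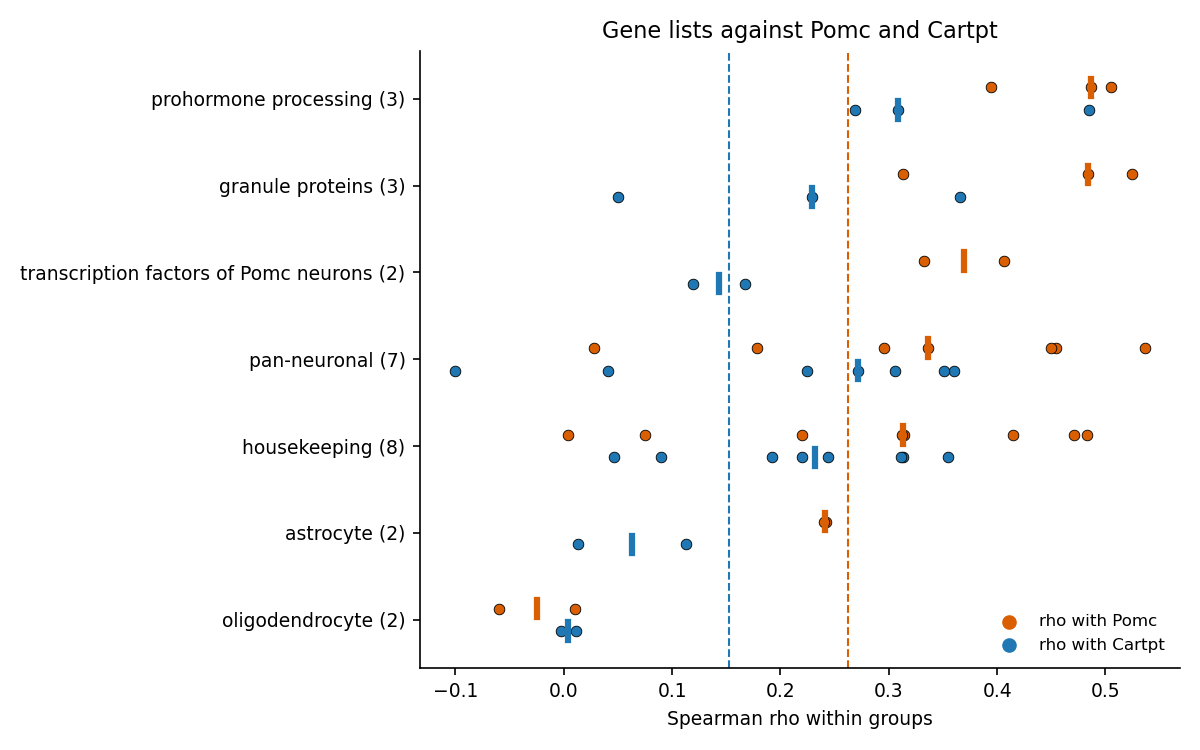
Spearman's rho within groups (horizontal) of the genes of each list (vertical, with the number counted in at least 38 cells) with *Pomc* in orange and with *Cartpt* in blue, with a thick bar at each list's median and dashed lines at the medians of all genes, 0.262 and 0.153. With *Pomc*, the prohormone processing and granule genes lie to the right of the orange line. With *Cartpt*, the granule gene *Scg2* (0.050) lies to the left of the blue line. The oligodendrocyte genes lie near 0 with both.

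Markers of other cells were present. For astrocytes 2 of 6 genes passed the minimum, with *Slc1a2*, a glutamate transporter, at 0.242 with *Pomc* and 0.013 with *Cartpt*, and for oligodendrocytes 2 of 6, with *Mbp*, myelin basic protein, at 0.011 with both. None of 8 microglial, 4 tanycyte and ependymal or 2 endothelial genes passed. The summed astrocyte level had medians of 445, 212, 706 and 155 CPM in Pomc+ CD, Ghost CD, Pomc+ HFD and Ghost HFD cells, with highest cells at 4321, 2110, 3391 and 1561 CPM. The summed oligodendrocyte level had medians of 129, 263, 261 and 310 CPM. The summed microglial level had higher medians on HFD than on CD, with 17.2, 3.98, 348 and 442 CPM, lowest cells at 0 in every group and highest cells at 2509, 2254, 12557 and 10233 CPM. Across cells it had a rho of -0.06 with *Pomc* and -0.07 with *Cartpt*, and the astrocyte sum had 0.242 and 0.125. The microglial markers *P2ry12* and *Cx3cr1* were counted in 7 and 13 cells. The part of these markers in the levels of *Pomc* and *Cartpt* was not tested.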

How the data were processed

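The authors aspirated each recorded neuron, amplified its cDNA with a SMART-Seq kit, which covers whole transcripts and has no molecular identifiers, and sequenced all libraries on 1 NovaSeq lane. Submitters' processing notes name cutadapt 2.10, STAR 2.7.5a, DESeq2 and the builds GRCm38 and mm10. The counting program and annotation are not given in the sources used here. The deposited raw table holds whole-number counts per gene and cell. The deposited normalized table holds a signal. A test on the files showed it to be each count over 1 factor that is the same for all genes of a cell. Symbols matched 52073 of 56980 identifiers.

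With Python 3.11.15, pandas 2.3.3 and scipy 1.17.1, counts were scaled to CPM, and Spearman's rho and the log2 ratio (0.5 counts added) were computed within each label and diet. No cell was left out. For comparison with all genes, CPM was ranked and standardized within each group and correlated over all cells, for genes counted in at least 38 of 76 cells. This step was tested on simulated data. Cells are not replicates, so no p-value was formed. Each cell was patched singly and no doublet caller was run. Alternatives were other scales, thinning to 40000 counts, cell filters, partial correlations, runs of cell numbers and leaving out each cell.

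The genes named are both members, the 5 highest and 3 lowest named genes by rho with each, all prohormone processing and granule genes that passed, and the highest of each other list by rho with *Pomc*. Others named with a count only, the lowest of the neuronal and housekeeping lists, and single cells, were chosen after values were seen. Members and lists were chosen with earlier results of these data known.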

Additional observations from a re-analysis of the deposited data

How the results depend on the processing

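The rank correlation was above 0 under all alternatives run, in every group, and each member was first for the other under all 4 alternative filters or scales. Leaving out each cell in turn moved rho between 0.739 and 0.864 in Pomc+ CD, 0.748 and 0.856 in Ghost CD, 0.705 and 0.810 in Pomc+ HFD, and 0.736 and 0.806 in Ghost HFD cells, and the log2 ratio between -1.26 and -0.97, -1.14 and -0.75, -1.84 and -1.67, and -0.90 and -0.73. Values that moved by over 0.1 in rho or 1.5-fold were the following, and the cause was not tested. Without the 7 genes counted in every cell, rho was 0.596 in Pomc+ CD, 0.533 in Ghost HFD and 0.667 as the mean of the groups. As Pearson's r of log2(CPM + 1) it was 0.596, 0.448 and 0.631, and with 10 added 0.663 in Pomc+ CD and 0.534 in Ghost HFD cells. In normalized counts it was 0.875 in Ghost HFD, and within run 3 it was 0.429 in Pomc+ CD cells. The log2 ratio was -1.82 from summed counts and -1.76 from mean CPM in Pomc+ CD, -0.69 and -0.65 in Pomc+ HFD, and -0.53 after thinning in Ghost CD cells. Relative to the all-cell median on the log2 scale, *Pomc* in normalized counts was at 0.23 in Pomc+ CD (1.01 in CPM) and -1.33 in Pomc+ HFD cells (-0.47). Without the 7 genes *Pomc* was at -0.0595 in Ghost HFD (0.44 in CPM) and *Cartpt* at 0.93 in Ghost CD cells (0.34). The Ghost minus Pomc+ log2 ratio, -0.01 on CD, was 1.53, 0.91, 0.57 and 0.10 within runs 1, 3, 5 and 7, and 0.14 in cells with both counted. On HFD it was 0.86, and 3.50 within run 8. The value of run 7 includes Ghost cell 712 with neither transcript counted, without which the Ghost median lay below the Pomc+ median there. The comparison of labels within runs or in cells with both counted, and the pooling of labels or diets, were added after the data were seen. No paired analysis was possible because each cell number belongs to 1 cell. Shallow cells limit low levels: 3 counts are 739 CPM in the cell with 4057 counts.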
